A study of Mus musculus with 6 samples.

Results

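The peaks described here are those next to the centromeric starts of mouse chromosomes, taken from a list of methylated-DNA peaks in knee articular chondrocytes. A peak was a member when it lay on an assembled chromosome and started before 5 Mb. The first 3 Mb of each chromosome is an assembly gap and held 0 peaks, so the members lie in the first 2 Mb of assembled sequence. The rule found 1508 members among 83968 chromosome peaks and 84111 peaks in all, on 16 chromosomes (1 to 6 and 10 to 19). The list used here stops inside chromosome 6, and the other chromosomes were not analysed here.

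The study captured methylated DNA with the methyl-CpG-binding protein MBD2 (MBD-seq) from primary cultures of chondrocytes, the cells of cartilage, of mice at postnatal day 3 to 5. The 3 control cultures carry the genotype label Dnmt1 flox, and the 3 conditional knockout (cKO) cultures carry Prx1-Cre with Dnmt1 flox/flox. Prx1-Cre is driven by a limb-bud enhancer, so it recombines the mesenchyme of the limb and not chondrocytes alone. The question of the series is how Dnmt1 acts on genes through DNA methylation. The peak names state that 3 datasets were merged before peaks were called and do not say which group they came from. No peak has a value for a single culture, so nothing below compares control with cKO, no spread between animals can be given and the depth of each library is unknown.

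Mouse chromosomes are acrocentric: the centromere sits almost at the tip, in long arrays of satellite repeats that are not part of the assembly. Satellite DNA around centromeres is a classic target of CpG methylation. Dnmt1 is the maintenance methyltransferase, which copies CpG methylation to the new strand after replication, and Dnmt3a is a de novo methyltransferase. MBD2 holds DNA with several methylated CpGs close together, so a peak needs both CpGs and methylation, while CpG-rich promoters of active genes are as a rule unmethylated.

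Of the members, few lay on a promoter. A table of RefSeq promoters of GRCm38.p6, the build of the peak list, gives 250 bases before and 50 after a transcript start. At the chromosome starts 10 of 464 promoters were overlapped by a peak, or 2.16%, beside 4.26% of the 24390 promoters on all analysed chromosomes. The 10 had between 5 and 13 CpGs in the 250 bases before the start. Among the promoters with at least 15 CpGs there, 0 of 134 had a peak at the chromosome starts and 1.30% had one over all. Among those with 5 to 14 CpGs the shares were 7.35% (10 of 136) and 10.0%, and among those with fewer than 5 they were 0 of 194 and 2.43%. The sequences of 6 of the promoters under a peak are shown to let the CpGs be seen. Each is the 250 bases before the transcript start, 5′ to 3′ on the strand of the gene, in lower case with every CG in capitals.
Gm52720: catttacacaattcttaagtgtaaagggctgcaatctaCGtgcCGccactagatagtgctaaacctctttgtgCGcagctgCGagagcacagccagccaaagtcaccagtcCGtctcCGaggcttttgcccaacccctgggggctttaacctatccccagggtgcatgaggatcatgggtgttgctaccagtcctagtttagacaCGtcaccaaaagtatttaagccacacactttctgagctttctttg
LOC115490388: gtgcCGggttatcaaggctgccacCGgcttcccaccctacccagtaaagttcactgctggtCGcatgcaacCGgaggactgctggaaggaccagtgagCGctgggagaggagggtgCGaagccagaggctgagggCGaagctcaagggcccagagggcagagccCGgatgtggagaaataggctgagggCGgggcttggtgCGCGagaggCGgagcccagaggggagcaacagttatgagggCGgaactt
Hormad2: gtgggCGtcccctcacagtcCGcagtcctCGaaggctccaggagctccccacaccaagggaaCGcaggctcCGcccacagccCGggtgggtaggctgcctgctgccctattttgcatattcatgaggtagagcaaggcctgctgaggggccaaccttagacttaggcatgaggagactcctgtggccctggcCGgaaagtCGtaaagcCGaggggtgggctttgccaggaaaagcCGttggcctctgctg
Fam228a: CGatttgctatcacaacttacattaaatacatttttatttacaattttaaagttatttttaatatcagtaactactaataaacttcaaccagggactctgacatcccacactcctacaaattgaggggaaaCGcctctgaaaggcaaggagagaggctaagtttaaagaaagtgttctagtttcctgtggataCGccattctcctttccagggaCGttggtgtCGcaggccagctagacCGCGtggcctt
Ccdc152: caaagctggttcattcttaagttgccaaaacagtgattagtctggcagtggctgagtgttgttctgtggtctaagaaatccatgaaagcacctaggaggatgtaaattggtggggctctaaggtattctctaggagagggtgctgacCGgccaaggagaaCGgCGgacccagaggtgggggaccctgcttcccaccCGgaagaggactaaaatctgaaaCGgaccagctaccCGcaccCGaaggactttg
Gstp2: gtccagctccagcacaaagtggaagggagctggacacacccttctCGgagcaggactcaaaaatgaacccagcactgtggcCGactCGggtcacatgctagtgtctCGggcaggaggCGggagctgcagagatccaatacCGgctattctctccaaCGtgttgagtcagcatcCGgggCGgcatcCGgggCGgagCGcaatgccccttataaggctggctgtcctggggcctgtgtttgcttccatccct

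These 6 lie on chr4:3200300-3200549, chr6:3182866-3183115, chr11:4441083-4441332, chr12:4738440-4738689, chr15:3303527-3303776 and chr19:4042222-4042471, in the order shown. LOC115490388, a long non-coding RNA gene, and Gstp2, a glutathione S-transferase, hold the most CpGs, with 13 and 12, and their peaks cover the whole stretch. Fold enrichment over the caller's background is the authors' own value for each peak. The Gstp2 peak had a fold of 19.5 and the LOC115490388 peak one of 14.7. Hormad2, which encodes a protein of the meiotic chromosome axis, has 10 CpGs, of which 6 lie under a peak with a fold of 27.1. Fam228a has 7 CpGs with 6 under a peak of fold 37.3, and Gm52720 and Ccdc152 have 7 each, all under peaks of fold 36.6 and 20.1. The peak at Adcy3, which encodes an adenylyl cyclase, reached 1 base into the 250 bases before its start and lay otherwise downstream. The remaining promoters under a peak belong to the non-coding genes Gm40261 and Gm11946, the latter with 2 starts.

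For comparison, 3 promoters without a peak, of genes with 5 or more peaks in the body are shown in the same form: Dnmt3a at chr12:3806910-3807159, Cpt1a at chr19:3323051-3323300 and Mthfd1l at chr10:3972825-3973074, all on the plus strand.
Dnmt3a: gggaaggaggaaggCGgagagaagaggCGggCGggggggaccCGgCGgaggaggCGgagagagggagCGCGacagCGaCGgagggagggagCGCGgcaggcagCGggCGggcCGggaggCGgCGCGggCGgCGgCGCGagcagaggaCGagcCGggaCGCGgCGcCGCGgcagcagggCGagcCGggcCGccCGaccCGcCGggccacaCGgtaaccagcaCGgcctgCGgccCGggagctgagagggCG
Cpt1a: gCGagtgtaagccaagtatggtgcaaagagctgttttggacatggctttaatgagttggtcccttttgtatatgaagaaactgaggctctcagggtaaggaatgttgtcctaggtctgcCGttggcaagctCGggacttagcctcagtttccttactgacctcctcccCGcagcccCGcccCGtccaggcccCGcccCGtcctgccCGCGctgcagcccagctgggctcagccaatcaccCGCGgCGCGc
Mthfd1l: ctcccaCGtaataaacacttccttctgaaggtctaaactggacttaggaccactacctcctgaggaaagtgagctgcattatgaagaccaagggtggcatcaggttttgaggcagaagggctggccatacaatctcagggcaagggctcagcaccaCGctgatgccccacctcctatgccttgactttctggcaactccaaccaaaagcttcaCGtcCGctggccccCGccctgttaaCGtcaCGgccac

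The Dnmt3a stretch holds 40 CpGs, and the nearest peak lies 22.4 kb from the transcript start, inside the gene. Dnmt3a has other promoters, and one inside the gene, with 15 CpGs, lies 3.91 kb from its nearest peak, also without overlap. The Cpt1a stretch holds 14 CpGs, with the nearest peak 32.8 kb away. The Mthfd1l stretch has 7 CpGs, as many as Ccdc152, and the nearest peak ends 1.50 kb before the transcript start. Of the 43 promoters of 31 listed genes (the lists are described with the genes), 0 were overlapped by a peak. The shares were 2.16% of promoters at the chromosome starts and 4.26% over all. For 43 promoters, 0 lies near these shares. The 43 had a median of 15 CpGs and a median distance of 12.0 kb to the nearest peak. The other 16 listed genes matched no promoter and are not in this count. They include Osm, Penk, Lrp5, Sgce and Peg10, which have a peak within 1 kb of a gene end.

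Counted over all 16 chromosomes, the chromosome starts held 47.1 peaks per Mb and the rest of the same chromosomes 42.9, a ratio of 1.10. The next 2 Mb (5 to 7 Mb) held 47.2 per Mb, so the pooled density did not fall beyond the boundary, and the last 2 Mb before the final peak of the 15 fully covered chromosomes held 46.0. Unassembled bases inside these windows were not subtracted. The starts were denser than the rest on 10 chromosomes and sparser on 6, and the per-chromosome difference ranged from -33.4 to 39.2 peaks per Mb. No test was run on this or any later comparison, because all peaks come from 1 pooled list.

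Chromosome 19 stood highest, with 178 peaks or 89.0 per Mb at its start beside 49.8 in its rest. Without chromosome 19 the pooled difference fell from 4.19 to 1.60 peaks per Mb. Chromosome 16 followed with 60.0 per Mb beside 38.3. Chromosome 14 had the fewest members, 41 or 20.5 per Mb beside 35.7, and chromosome 17 had 46 or 23.0 beside 56.4. Leaving out chromosomes 14 and 17, an alternative added after their values were seen, raised the difference to 8.01. The number of protein-coding genes that start before 5 Mb ran from 1 on chromosome 3 to 67 on chromosome 19, with 42 on chromosome 11. Gene number and density did not always go together: chromosome 14 had 32 such genes and the sparsest start, chromosome 3 with its 1 gene had 41.0 peaks per Mb, and chromosomes 5, 12 and 13 had 16, 23 and 18 genes beside 111, 112 and 110 peaks. Across the 16 chromosomes the number of protein-coding genes and the peak density had Pearson's r of 0.69 and Spearman's rho of 0.65. The relation was carried mainly by chromosomes 11 and 19, without which r was 0.25. The points share the list and its depth, and these values are a description.

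**Figure D1:**
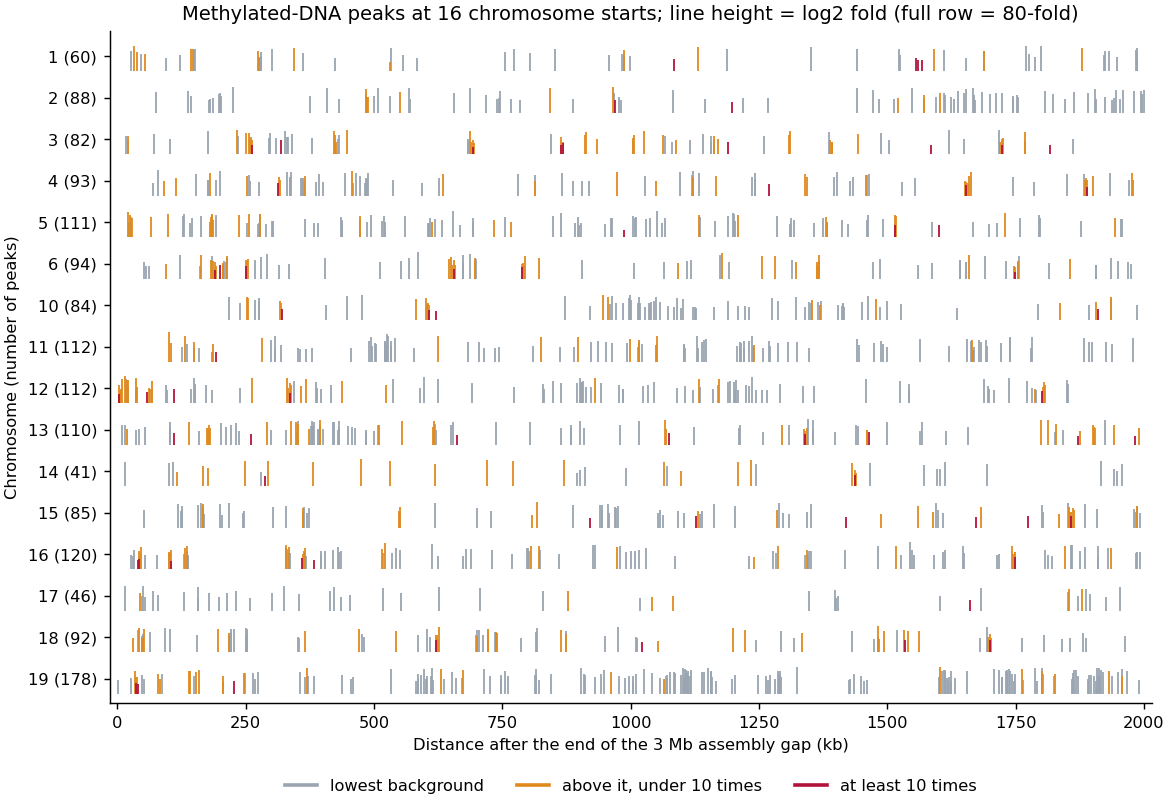
Each line is 1 of the 1508 peaks, placed by its distance in kb after the 3 Mb gap (horizontal axis) on its chromosome (vertical axis, number of peaks in brackets), with a height on a log2 scale of fold and a colour for the recovered background. Orange and red lines, whose background lies above the lowest, outnumber grey ones in the first 250 kb of chromosomes 5, 6, 11, 12, 14, 16 and 19, and chromosomes 14 and 17 have the fewest lines, 41 and 46.

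**Figure D2:**
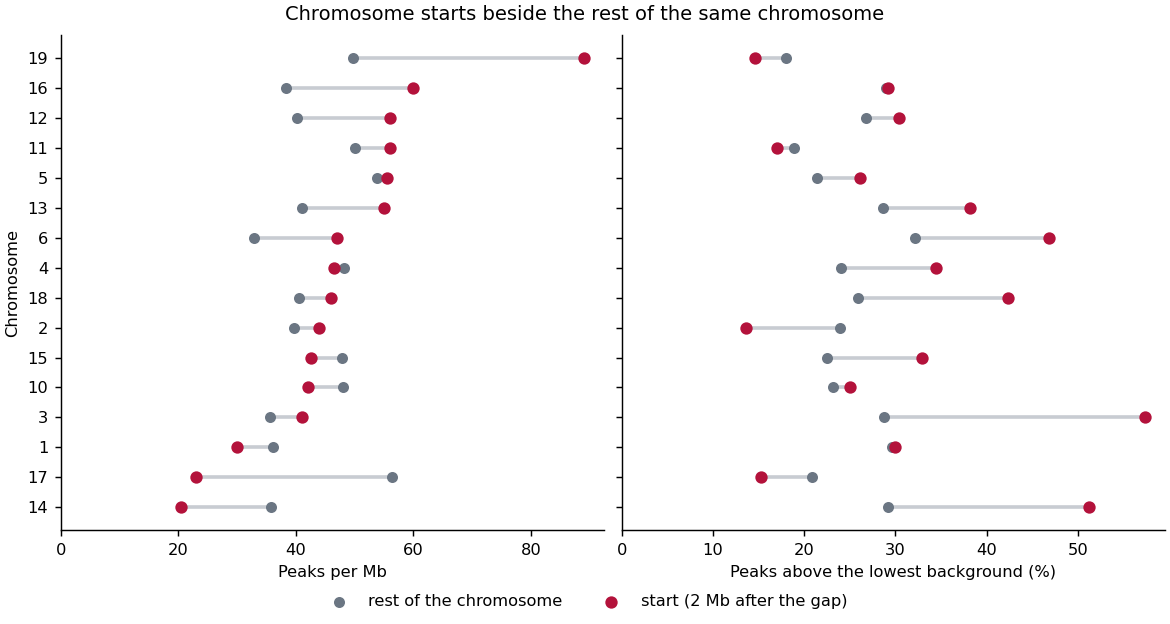
Points give peaks per Mb (left panel) and the percentage of peaks whose background lies above the lowest (right panel) for each chromosome, in red for the start and in grey for the rest. Chromosome 19 has the densest start with 89.0 peaks per Mb, and chromosomes 3 and 14 have the largest shares above the lowest background, 57.3% and 51.2%.

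The members differed little from the other peaks in height and width. Their median fold was 14.1 (quartiles 8.59 and 24.0, range 2.50 to 72.5) beside 13.2 in the rest, and their median width was 446.5 bp beside 415 bp. The median fold was higher at the start on 12 chromosomes and lower on 3, and the median width was higher on 12 and lower on 4. A fold of at least 20 was reached by 486 members, or 32.2%, beside 28.9% of the rest. Chromosome 14 stood apart: its 41 peaks had a median fold of 24.7 and a median width of 545 bp, and 16 of them, or 39.0%, had a fold of at least 30. On the rest of chromosome 14 that share was 10.2%, and on the other 15 starts it was 12.4%. Chromosome 3 had the lowest median fold at its start, 10.8.

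The pileup (reads over the summit) and the caller's local background were recovered from the fold and p of each peak. The lowest background was 6.37 reads, a floor that most peaks share, and a higher value means that the caller set a higher local background at that place. Above that floor lay 454 members, or 30.1% (95% Wilson interval 27.8% to 32.5%, counting error only), beside 24.9% of the rest and 25.0% of all chromosome peaks. The share was higher at the start on 12 of 16 chromosomes. It was 57.3% on chromosome 3, 51.2% on chromosome 14 and 46.8% on chromosome 6, and 13.6% on chromosome 2 and 14.6% on chromosome 19. The share in the next 2 Mb was 27.3%. On the 15 fully covered chromosomes it was 29.0% at the starts and 29.2% in the last 2 Mb, so there the starts were not higher. The share counts even a slight excess over the floor. At least 2 times the lowest background was reached by 17.6% of members and 16.1% of the rest. In the next 2 Mb that share was 17.9%, and in the last 2 Mb 18.9%. Among peaks above the floor the median background was 14.7 reads at the starts and 18.4 in the rest. Peaks at the lowest background alone had almost the same density at the starts and in the rest, 32.9 and 32.3 per Mb.

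The stretch next to the gap differed from the remainder of the window in background and gene content more than in density. The first 250 kb held 240 peaks, 60.0 per Mb, and 103 of them, or 42.9% (interval 36.8% to 49.2%), lay above the lowest background. In the other 7 steps of 250 kb the density ran from 38.8 to 57.2 per Mb and the share from 20.7% to 32.5%. The share in the first 250 kb exceeded that of the rest of the same chromosome on 12 of 16 chromosomes. It reached 68.2% on chromosome 19 (15 of 22 peaks) and 63.6% on chromosome 11 (7 of 11), while chromosomes 2 and 10 had 0 of 10 and 0 of 2. Gene bodies cover 22.0% of the bases of this step and 43.5% to 58.5% of the others. Among peaks outside genes the share above the lowest background was 42.2% over the starts, 43.3% in the next 2 Mb and 45.6% in the last 2 Mb. Whether this step differs from other sequence outside genes was not tested. The first 100 kb held 93 peaks, 44 of them (47.3%) above the lowest background. Only 4 (4.30%) had their midpoint in a gene body, where gene bodies cover 7.83% of the bases.

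**Figure D3:**
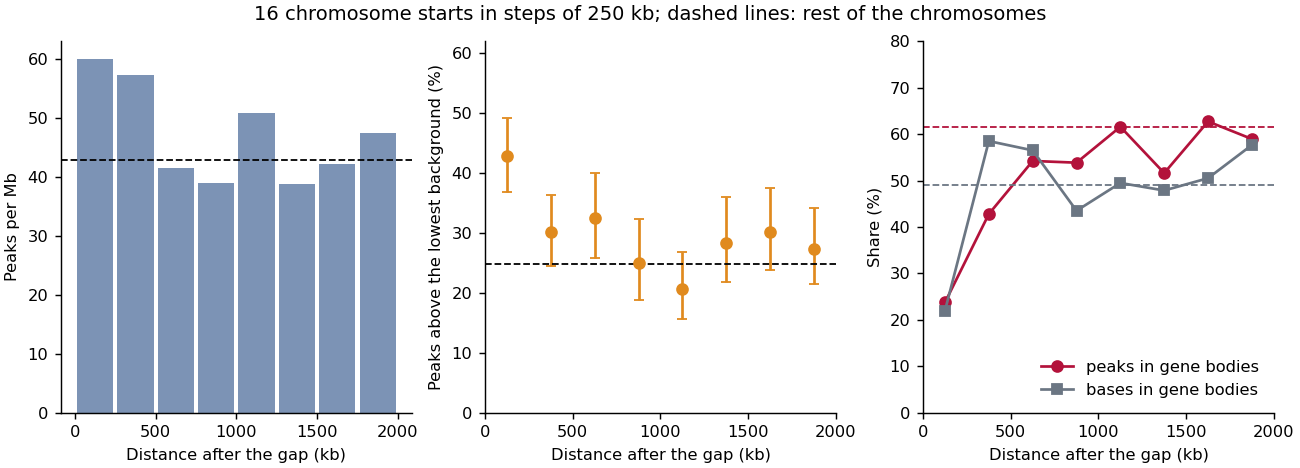
Horizontal axes give the distance in kb after the gap in 250 kb steps over 16 chromosomes: peaks per Mb (left), percentage of peaks above the lowest background with 95% Wilson intervals (middle), and percentage of peaks and of bases in gene bodies (right); dashed lines are the rest of the chromosomes. The first step has the highest density, 60.0 per Mb, the highest share above the lowest background, 42.9%, and the lowest share in gene bodies.

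The first peak of a chromosome began between 1827 bp after the gap on chromosome 19 and 217890 bp on chromosome 10, with a median of 26.7 kb. On chromosome 19 it was a small peak at chr19:3001827-3001946 with 49 reads and a fold of 6.78. On chromosome 12 it was a broader peak at chr12:3002197-3002917, where 582 reads stood over a background of 39.0, a fold of 14.6. On chromosome 18 it lay at chr18:3030934-3031912, with 517 reads over a background of 61.4 and a fold of 8.29. The first peak of 12 chromosomes sat at the lowest background and that of the other 4 above it, near the 25.0% of all chromosome peaks above it.

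The first peak of chromosome 11, chr11:3101280-3102064, was also the member with the highest fold. It had 1137 reads over a background of 14.7, a fold of 72.5, and lay outside genes, 22.3 kb from the transcribed pseudogene Pisd-ps1. The next was chr11:3524827-3525465 inside Smtn, the gene of the smooth muscle protein smoothelin, with 399 reads and a fold of 54.3 over the lowest background. A peak at chr12:3014208-3014877 outside genes had 528 reads and a fold of 52.4. Of the 10 members with the highest fold, 6 lay in a gene body: those in Smtn, Tfap4 (50.2), Kdm2a (48.6), Vps50 (48.3), the non-coding LOC108169020 (46.1) and Pcx (45.9).

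The remaining 2 of these 10 lay on chromosome 14, at chr14:3473889-3474486 with a fold of 52.5 and chr14:3719572-3720161 with a fold of 48.0. They resembled each other: both had 403 reads, and both lay 5.50 kb from the nearest gene, the pseudogenes Gm8323 and Gm2871. Their widths were 598 and 590 bp. Whether they are copies of one sequence was not tested.

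Much higher backgrounds were about as frequent among the members as elsewhere. At least 10 times the lowest background was reached by 68 members, 4.51% beside 4.88% of the rest, on all 16 chromosomes, with the most (9) on chromosome 3. They were broad, with a median width of 760.5 bp, and their median pileup was 468 reads, beside 446.5 bp and 141 reads over all members. Their median fold was 4.84, but they were chosen by background, and a high background lowers the fold by definition. Gene bodies held 20 of these 68 peaks, beside 135 of the 454 members above the lowest background, a similar part. The 2 highest pileups of the chromosome starts belong here. At chr12:3109870-3110119, outside genes, about 18416 reads stood over a background of 2276, a fold of 8.09. At chr11:3192789-3193921 inside Sfi1, a gene for a centrosome protein, about 17583 reads stood over a background of 4036, a fold of 4.36. Neither gave a whole-number pileup within the tolerance, so these counts are approximate. The third, chr6:3200668-3201590, had 1291 reads over 173.8, a fold of 7.39, and lay 2.62 kb from LOC115490388, whose promoter peak is shown among the sequences. Apart from the first 2 of these, the highest background of a member was 181.5 reads.

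The widest member, chr10:4353142-4356406, spanned 3265 bp inside Akap12, which encodes a scaffold protein of protein kinase A, with 318 reads and a fold of 19.5. The other 2 of the 3 widest lay outside genes at chr12:4801223-4803408 (2186 bp, fold 5.74) and chr13:4981843-4983938 (2096 bp, fold 3.37). Their backgrounds, 97.8 and 127.9 reads, were over 10 times the lowest. The 16 last members before 5 Mb had a median fold of 12.3 (range 7.60 to 33.6) and the 16 first peaks beyond it 14.4 (6.65 to 34.2). Of these, 2 and 4 lay above the lowest background, beside 25.0% of all chromosome peaks.

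Gene bodies, from the start to the end of a gene in the table and with introns included, held fewer of the members than of the other peaks. Midpoints lay in a gene body for 752 members, or 49.9%, beside 61.5% of the rest, 61.2% of all chromosome peaks, 61.9% in the next 2 Mb and 61.4% in the last 2 Mb. Gene bodies cover nearly the same part of the starts and of the rest, 48.2% and 49.0% of bases. Outside genes the starts therefore held 45.7 peaks per Mb beside 32.5 in the rest, and inside genes 48.7 beside 53.8. The low share in gene bodies was not even over the window. It was 23.8% in the first step of 250 kb, 42.8% in the second and 51.6% to 62.7% in the later ones. Gene bodies cover 22.0%, 58.5% and 43.5% to 57.7% of the bases there. Peaks per Mb of all sequence were 60.0, 57.2 and 38.8 to 50.8. Densities outside genes are not given by step. Members outside genes lay above the lowest background in 42.2% of cases (319 of 756) and those inside in 18.0% (135 of 752), beside 37.7% and 16.8% in the rest. Outside genes the share was 43.3% in the next 2 Mb and 45.6% in the last 2 Mb, both above that of the starts. Whether the CpG content of the sequence outside genes differs was not tested.

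The share in gene bodies was lower at the start on 11 chromosomes and higher on 5. On chromosome 3, where genes cover 11.2% of the window, 2.44% of members lay in one, beside 53.6% in its rest. On chromosomes 18 and 4 the shares were 15.2% and 17.2%, beside 58.7% and 62.9%. At the other end stood chromosomes 11, 19 and 10 with 83.0%, 81.5% and 78.6%, each above its rest. The density outside genes was higher at the start on 11 chromosomes and lower on 5, with differences from -19.3 to 57.1 per Mb. It was highest on chromosome 12, 88.1 per Mb beside 31.0 in its rest. On chromosome 19 it was the density inside genes that was highest, 103.1 beside 64.4.

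**Figure D4:**
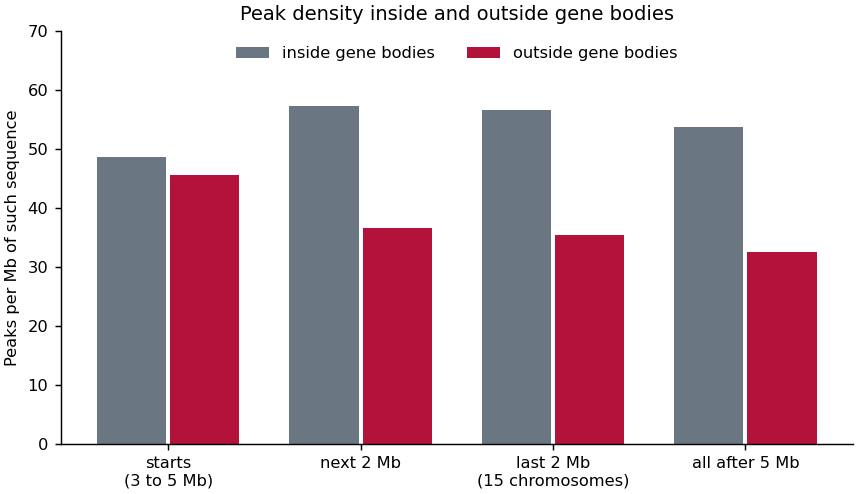
Bars give peaks per Mb of sequence inside (grey) and outside (red) gene bodies for the chromosome starts, the next 2 Mb, the last 2 Mb and all sequence after 5 Mb; each bar is 1 pooled value with no error bar. Outside genes the starts reach 45.7 per Mb and the other sets lie between 32.5 and 36.7, while inside genes the starts are lowest with 48.7.

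Peaks within 1 kb of either end of a protein-coding gene were as frequent among members as elsewhere: 66 of 1508, or 4.38%, beside 4.35% in the rest and 4.35% over all chromosome peaks. Chromosome 19 supplied 21 of the 66 and chromosome 11 supplied 13. The share was lower at the start than in the rest on 12 chromosomes, and without chromosome 19 it was 3.38% beside 4.32%.

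Peaks crowded in places. In windows of 100 kb the median was 4 members at the starts and 3 in the rest, 7.81% and 11.3% of windows were empty, and 11.6% and 10.6% held at least 10 peaks. The fullest was chr12:3000001-3100000, directly after the gap, with 22 peaks, 15 of them above the lowest background, and no protein-coding gene. The window chr16:3300001-3400000 held 20, with 8 above the lowest background and again no protein-coding gene. The third, chr19:4100001-4200000, was of another kind: its 18 peaks all sat at the lowest background, had a median fold of 22.9 and lay among 12 protein-coding genes, among them Ppp1ca, a catalytic subunit of protein phosphatase 1. The longest peak-free stretch ran 265.5 kb, at chr17:4082558-4348027, with no protein-coding gene, followed by 251.0 kb on chromosome 10 around Plekhg1 and 235.9 kb on chromosome 3 around Hnf4g.

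Of the 324 protein-coding genes that start before 5 Mb, 190 had at least 1 peak in the body, or 58.6%, beside 64.7% of the 15764 protein-coding genes of these chromosomes. Peaks per 100 kb of gene were 4.77 beside 5.70 in the other protein-coding genes, whose median length was 18.6 kb beside 19.9 kb here. Of 166 long non-coding RNA genes 68 had a peak, or 41.0%, beside 34.5% of this class on all analysed chromosomes, and of 183 pseudogenes 51, or 27.9%, beside 28.9%. Among small RNA genes, 0 of 9 microRNA genes and 0 of 11 small nucleolar RNA genes had a midpoint in the body, beside 2.28% and 0.235% of these classes over all. The 4 olfactory receptor genes, all on chromosome 16, had 0 peaks, as had most of this family elsewhere, where 4.94% of 932 had one. The 8 aldo-keto reductase 1C genes of chromosome 13, enzymes of steroid metabolism, included 3 with a peak; no gene of this family lay elsewhere on the analysed chromosomes.

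The gene with most members was Mthfd1l (chr10:3972892-4167081), the mitochondrial enzyme of one-carbon metabolism that releases formate, with 23 peaks. Their folds ran from 5.97 to 39.1 with a median of 12.6, and all 23 sat at the lowest background. The strongest, chr10:3999501-4000409, had 287 reads. Frmd4a (chr2:4017650-4614043), a FERM-domain scaffold of epithelial polarity, had 17 peaks over 596.4 kb. Lrp5 (chr19:3584825-3686585), a Wnt co-receptor known for its role in bone mass, had 15 over 101.8 kb, the closest spacing of these 5 genes at 14.7 per 100 kb. Cdk6 (chr5:3341004-3531008), a cyclin-dependent kinase of the G1 phase, and Xkr4 (chr1:3199733-3671948) had 13 each. Per length Mthfd1l had 11.8 and Xkr4 2.75 per 100 kb.

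The listed genes cover energy metabolism, skeletal and growth signalling, chromatin, and the imprinted cluster of chromosome 6. Of the 47 that start before 5 Mb, 37 had a peak in the body and 10 within 1 kb of an end, beside 64.7% and 21.8% of all protein-coding genes of these chromosomes. The 10 are thus near the share over all genes. A body that runs past 5 Mb is counted whole: Arid1b, a subunit of BAF chromatin remodelling complexes, begins at 4994297 on chromosome 17, and its 22 peaks all lie beyond 5 Mb. The lists were drawn up with earlier results known and hold long genes (medians of 30.8 to 83.9 kb), so their counts are a description.

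Of the 14 energy and mitochondrial genes, 11 had a peak in the body, or 78.6%, beside 64.7% of all protein-coding genes. Pcx (chr19:4510472-4621752), pyruvate carboxylase, had 9 peaks with a median fold of 25.9 and a range from 7.73 to 45.9. They all lay within 20 kb of the gene's end at the higher coordinate, from chr19:4601626-4602020 to chr19:4619707-4619944, and not elsewhere along its 111.3 kb. Oxct1 (chr15:4026428-4155344), which starts the use of ketone bodies, also had 9, of lower fold, with a median of 9.09 and a highest of 13.7. Cpt1a (chr19:3322326-3385735), the carnitine transferase that admits long-chain fatty acids to mitochondria, had 5, of which chr19:3368747-3369296 reached a fold of 40.1.

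The complex I genes are short, 3.91 and 5.26 kb. Ndufs8 (chr19:3908863-3912774) had 2 peaks of fold 18.7 and 16.3, the first 265 bp from the gene end opposite its transcript start. Ndufv1 (chr19:4007499-4012755) had 1 of fold 18.4. Mterf1a, a mitochondrial transcription termination factor, had its stronger peak, of fold 31.7, 129 bp from the gene end opposite its transcript start. Hnf4g, a nuclear receptor, Trap1, the mitochondrial chaperone, and Mrpl21, a mitochondrial ribosomal protein, had 0 peaks.

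Of the 17 skeletal and growth genes, 11 had a peak in the body, or 64.7%, the same as the 64.7% of all protein-coding genes. The 15 peaks of Lrp5 had folds from 7.73 to 43.3 with a median of 13.8. The strongest was chr19:3612001-3612615, and chr19:3584875-3585393, of fold 17.5, lay 309 bp from an end. Ghr (chr15:3317755-3583352), the growth hormone receptor, had 10, and 5 of these lay above the lowest background. Esr1 (chr10:4611989-5005633), oestrogen receptor alpha, had 9 over 393.6 kb, 4 of them above the lowest background.

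Tcirg1, a subunit of the proton pump of osteoclasts, had 1 wide peak of 1719 bp and fold 44.4. The neighbouring cytokine genes Osm and Lif had 3 peaks each in the body. Osm had a further peak, chr11:4236340-4236937, across its boundary at the lower coordinate. The peak's midpoint lay outside the gene, 146 bp from that boundary. The peak had 319 reads and a fold of 43.4. Osm matched no promoter, so whether this peak lay on one was not tested. The body peaks of Osm were lower, between 8.41 and 11.8. Lif had peaks near both ends, of fold 7.19 and 10.3. Penk, the enkephalin precursor, had 1 of fold 26.9, 588 bp from an end. No peak lay in Col1a2, a chain of type I collagen, or in Sox17, Fzd1, Pomc, Crem and Clcf1.

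Of the 12 chromatin genes, 11 had a peak in the body, Arid1b included, or 91.7% beside 64.7% of all protein-coding genes. Dnmt3a (chr12:3801559-3914443) had 10 peaks, all at the lowest background, with folds from 8.14 to 38.5 and a median of 19.7. The strongest, chr12:3901397-3901931, had 283 reads. Kdm2a, a demethylase whose CXXC domain binds unmethylated CpG islands, had 1 peak, of fold 48.6. Patz1, a zinc finger factor, had 3 of fold 6.38, 24.2 and 39.6, and Crebbp, a histone acetyltransferase, had 1 of 51 reads and fold 7.05 in 132.6 kb. Suv39h2, which trimethylates histone H3 lysine 9 in pericentromeric heterochromatin, had 0.

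In the imprinted cluster of chromosome 6 all 4 listed genes had a peak in the body, beside 64.7% of all protein-coding genes. Sgce and Peg10 share a bidirectional promoter region that carries the methylation imprint of the cluster and are expressed from the paternal allele. A peak at chr6:4746778-4747116 had 141 reads over a background of 20.3, a fold of 6.67. It lay inside Sgce, 257 bp from the gene boundary that faces Peg10 and 359 bp from the facing boundary of Peg10. Inside Peg10, chr6:4748508-4748626 had 182 reads over 72.2, a fold of 2.50, the lowest of all 1508 members, and chr6:4749132-4749427 a fold of 5.15. The median pileup of all members was 141 reads, and the first 2 of these peaks were at or above it, over raised backgrounds. In all, 3 of the 5 Peg10 body peaks stood above the lowest. Further along Peg10, chr6:4756894-4757380 reached a fold of 28.4 over the lowest background. Casd1 had 2 peaks of fold 14.4 and 13.0 near its end, and Ppp1r9a had 6 members and 13 peaks in the whole body.

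**Figure D5:**
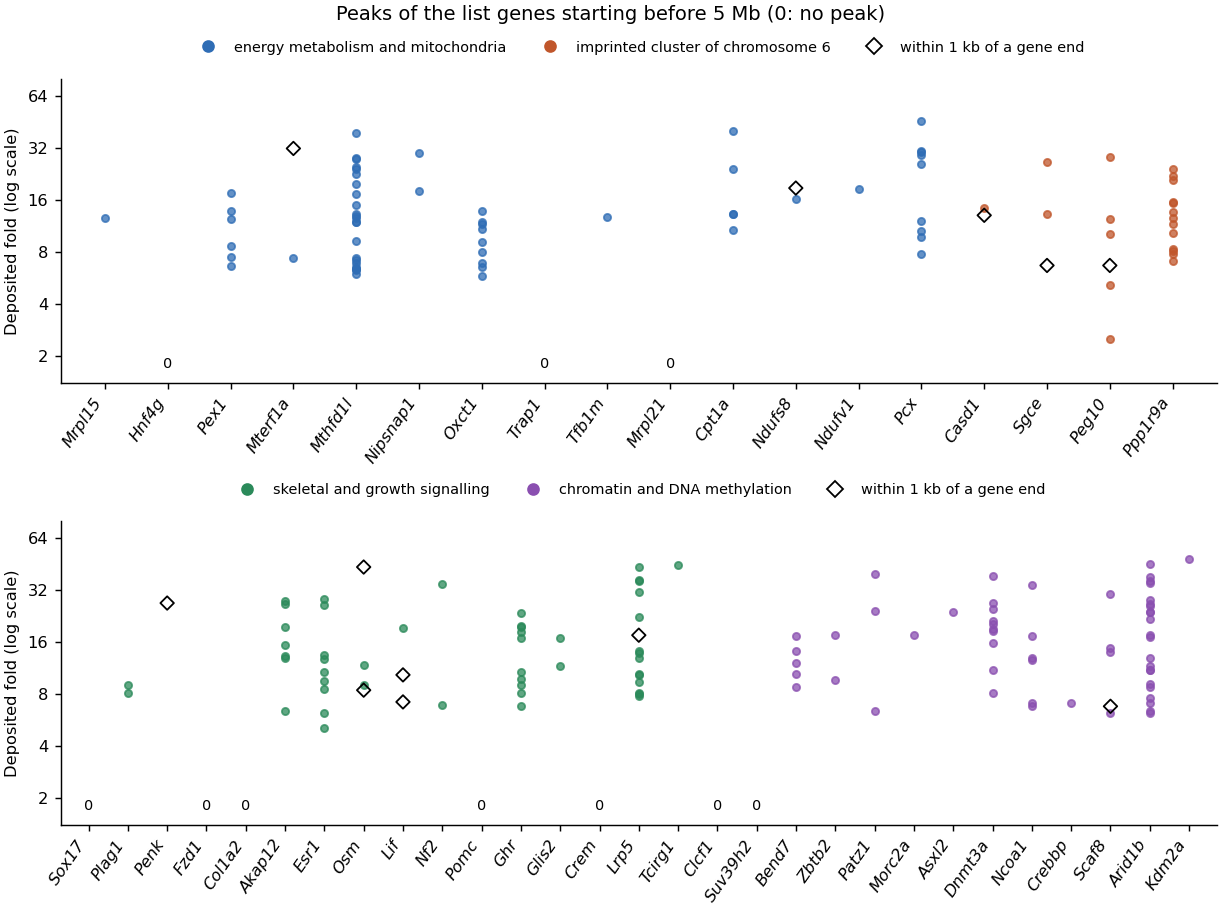
Each point is the deposited fold (vertical axis, log scale) of 1 peak in the body of a listed gene (horizontal axis), open diamonds are peaks within 1 kb of a gene end, and 0 marks a gene with no peak. Mthfd1l and Arid1b have the most points, 23 and 22. The peak across the lower-coordinate boundary of Osm has a fold of 43.4, and the lowest point is the Peg10 peak of fold 2.50.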

How the data were processed

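The deposited file is 1 pooled peak list in the narrowPeak layout under other column names. Per the file headers and values, its deposited columns hold a fold (a ratio over the caller's background), −log10 p and −log10 q values, a score equal to the whole part of 10 times −log10 q, and positions. The submitters' processing notes name fastp, Bowtie2, MACS2 and the builds mm10 and GRCm38, with no versions or parameters. The lowest −log10 q was 20. An incomplete last line was left out.

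Starts were counted from 0 in the deposited list and are printed from 1. Pileup k and background b were solved from fold = (k + 1)/(b + 1) and the Poisson p; 99.97% of peaks gave a whole k within 1% of the spacing of neighbouring values, 25 did not, and 3 of those are members. The step was tested on simulated data. Genes and promoters came from RefSeq tables of GRCm38.p6, of which 447 gene rows on scaffolds or before 3 Mb were left out. Of the listed genes, 31 of 47 matched a promoter. Peaks were placed by their midpoint. Software was Python 3.11.15, numpy 2.4.6, pandas 2.3.3, scipy 1.17.1 and matplotlib 3.10.9.

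The members, the 4 gene lists and the alternatives were chosen with earlier results of these data known. Named items are the 10 members of highest fold, the 3 widest, the 3 of highest pileup, the first peak of each chromosome, the peaks on either side of 5 Mb, the 3 fullest windows of 100 kb, the longest peak-free stretch, the 5 genes with most members and the listed genes; promoter sequences and chromosomes were chosen after their values were seen. No test was run: the list has no values per sample, so depth per sample is unknown and intervals cover counting error over peaks only. CpG content of peaks was not analysed here.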

Additional observations from a re-analysis of the deposited data

How the results depend on the processing

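Alternatives were judged against a 95% interval of each count, share or median at the starts. As differences from the rest, the limits were 1.84 to 6.63 peaks per Mb for density and 2.98 to 7.60 points for the share above the lowest background. They were -14.1 to -9.06 points for gene bodies and -0.893 to 1.18 points for gene ends. For fold they were 0.221 to 1.63 and for width 15 to 46 bp. The density difference of 4.19 peaks per Mb was 1.13 with the boundary at 10 Mb, 0.678 with peaks at the lowest background only, 1.60 without chromosome 19, 8.01 without chromosomes 14 and 17 (added), -0.0625 against the next 2 Mb, which turns its direction, and 1.10 against the last 2 Mb. The difference of 5.24 points in the share above the lowest background was 8.62 with the boundary at 4 Mb, 2.82 against the next 2 Mb and -0.258, turned, against the last 2 Mb. The difference of -11.6 points in gene bodies kept its direction throughout and was -19.8 and -8.61 with boundaries at 4 and 10 Mb, -15.5 without chromosome 19 and -8.59 without the first 100 kb. The gene-end difference of 0.0291 points turned to -1.20 and -0.896 at those boundaries. It was also turned without chromosome 19 (-0.938), against the last 2 Mb (-1.41) and as a median over chromosomes (-1.04). Inside the interval it turned to -0.272 and -0.129 at −log10 q of at least 50 and 100, and to -0.124 with a window of 2 kb. The fold difference of 0.950 was 0.136 against the next 2 Mb. The width difference of 31.5 bp was 11.5 at −log10 q of at least 100, 11.5 at the lowest background, 14.5 against the next 2 Mb and 3.50 against the last. Of the listed genes 21 had an end peak in a 2 kb window and 5 at −log10 q of at least 100, beside 10. The cause of these changes was not tested. No paired analysis was possible because no peak carries a value for a single culture; leaving out replicates and the CpG content of peaks were not run.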
